A study of Drosophila melanogaster with 8 samples.

Results

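Long noncoding RNA genes are transcribed into RNAs that are not known to be templates for protein, and 49 of them were followed in clock neurons of the adult Drosophila brain. The set was taken from the 17868 genes of the deposited tables. It holds the genes whose name begins with lncRNA and whose estimated count was at least 50 in every one of the 8 libraries, with lncRNA:CR44832, lncRNA:roX1 and lncRNA:roX2 left out. The tables name 1933 such genes, of which 1030 had a count in any library, 215 had a count in every library and 52 reached the minimum before the 3 exclusions. A further 103 reached the minimum in some libraries but not in every one. The members were thus chosen by their estimated counts, that is on level, so that the levels below are a description. Differences between circadian times were not used directly to choose the genes. A minimum in every library can still drop a gene whose level falls far at some time.

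All 8 libraries came from flies that carried Clk-GAL4, UAS-GFP-NLS and UAS-mor-RNAi, so every group shares the knockdown of mor, which encodes a scaffold of the Brahma chromatin remodeller. The groups were circadian times CT0, CT6, CT12 and CT18, in hours, on the second day of constant darkness after entrainment to light and dark, with 2 libraries each. Clk-GAL4 is active in the circadian pacemaker network, and live cells with nuclear green fluorescence were sorted from brains. RNA with a poly(A) tail was copied into cDNA and sequenced. The age and sex of the flies and the number of animals behind a library are not given in the labels, and no control genotype was analysed here.

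Long noncoding RNAs act in several ways: some hold proteins in nuclear bodies, some are precursors from which microRNAs are cut, and for others only the act of transcription is known to matter. In flies the best studied nuclear body of this kind is the omega speckle, built on the transcripts of Hsromega, which collects heterogeneous nuclear ribonucleoproteins and is remodelled on heat shock. In neurons, microRNAs cut from long precursors tune translation of their targets, and the amount of a precursor need not follow the amount of its mature microRNA, which was not measured here.

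The libraries were not alike in depth or in cell content. Totals ran from 15006258 estimated counts in CT12 replicate 2 to 29346348 in CT0 replicate 1, so that 3 counts stood for 0.103 to 0.194 CPM (counts scaled to library size, here with TMM factors), a floor that covers counting error only. The pan-neuronal gene elav lay between 82.7 and 129 CPM and the glial regulator repo between 0 and 0.714 CPM. By mean TPM the other glial markers were higher than repo, but not in every library. Moody was near the floor as well, from 0.035 to 0.941 CPM. The sum of 8 glial markers ran from 131 CPM in CT0 replicate 2 to 285 CPM in CT12 replicate 1. The photoreceptor opsin ninaE reached 177 CPM in CT18 replicate 2 and the hemocyte gene Hml 25.0 CPM in CT12 replicate 1, each with no counts in at least 1 library. Single markers did not stand for their lists. The sum of 11 photoreceptor markers was highest in CT0 replicate 2, at 455 CPM with 253 CPM of Arr2, where ninaE had no counts. It was lowest in CT6 replicate 2, at 119 CPM. The sum of 6 hemocyte markers ran from 21.0 CPM in CT18 replicate 1 to 170 CPM in CT12 replicate 1. Pdf, the neuropeptide of the ventral lateral clock neurons, ran from 89.3 CPM in CT6 replicate 1 to 37187 CPM in CT6 replicate 2, and was 1647 CPM in CT18 replicate 1. The sum of the other 13 clock neuron markers lay between 14240 CPM in CT6 replicate 2 and 23012 CPM in CT18 replicate 1. It was next lowest in CT6 replicate 1, at 14350 CPM, so that library differed from its duplicate in Pdf and not in that sum. The sum hides single markers. NPF, one of the 13, had 28.2 CPM in CT6 replicate 1 and 2748 CPM in CT6 replicate 2. NPF was also low at CT18, with 10.5 and 43.4 CPM. Trissin, also one of the 13, had 9.03 CPM in CT12 replicate 1 and 1674 CPM in CT12 replicate 2. The mean log2 CPM of the clock neuron markers with Pdf was lowest in CT6 replicate 1, at 8.22, followed by 8.35 in CT12 replicate 1. Changes of single genes between CT18 and CT6 that move by over 1.5 times without CT6 replicate 1 are given with and without it below. The targeted gene mor had between 4.14 and 21.8 CPM, which does not measure the knockdown without a control. Because these are bulk libraries, fewer cells of a type and less RNA per cell cannot be told apart.

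The 49 genes lie on all the large chromosome arms. The arm 3R holds 12 of them, 3L and 2L hold 11 each, 2R holds 7, the X chromosome 5 and the small chromosome 4 the remaining 3. In the Ensembl annotation of the dm6 assembly, 26 lie between other genes, 7 lie within introns of a protein-coding gene, 11 share exonic bases with another gene on the same strand and 5 share them on the opposite strand only. A single exon block makes up 25 of the genes. They are short: their median effective length was 958 bases, against 1779 bases for the 6889 other genes past the same minimum. This is not particular to them, since the 57 genes named asRNA past that minimum had a median of 962 bases. In 33 of them no exonic base is shared with another gene, whereas 4 share over 80% of theirs, namely CRG with CASK (100%), CR45109 with 2mit (100%), CR45184 with Sf3b3 (94.7%) and CR45939 with ftz-f1 (89.9%). No source used here states whether reads were counted by strand, and reads of these genes and of their partners cannot be told apart.

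Together the 49 genes took between 2.48% and 3.13% of all TPM (a level per length, scaled to the same total in each library) and between 1.84% and 2.53% of all counts of a library. The sum was very unequal. Just 3 of the genes, noe, Hsromega and CR31451, made up 86.5% to 92.1% of it. Of the 49, these 3 had a mean of 1000 TPM or more, 8 lay from 100 to 1000 TPM, 26 from 10 to 100 TPM and 12 under 10 TPM. The median member had a mean of 39.9 TPM, while the median was 31.0 TPM over the other genes past the same minimum. At the same count minimum a shorter gene needs a higher TPM to pass, so these 2 medians are not on equal terms. The 57 genes named asRNA past that minimum, which are of like length, had a median of 10.2 TPM. The plot of levels shows that noe ranked first in every library and that most neighbours in the order had overlapping ranges. Hsromega lay above CR31451 by mean, but CR31451 had 5234 TPM and Hsromega 4614 TPM in CT12 replicate 1.

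**Figure D1:**
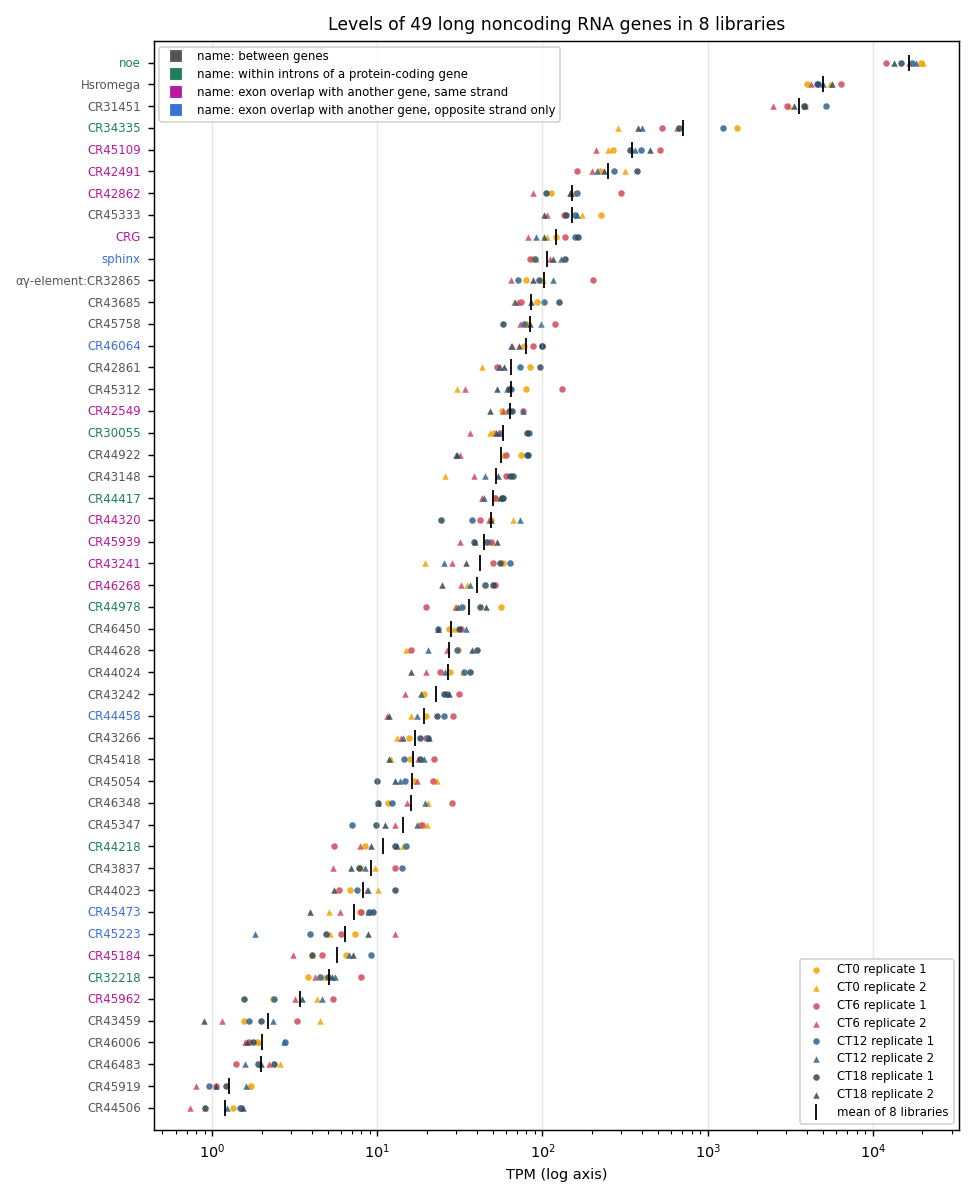
TPM of each of the 49 genes (rows, by mean) in each of the 8 libraries, on a log axis, with colour for circadian time, shape for replicate and a bar for the mean of 8 libraries. The colour of a name gives the position of the gene relative to other genes. Noe, Hsromega and CR31451 stand apart from the other 46, which lie below them in every library.

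The most abundant of the genes was noe (FBgn0026197), a single exon on the minus strand of 3L at 17400272 to 17401348, inside an intron of blot on the same strand. Noe averaged 16475 ± 2872 TPM (SD, n = 8 libraries) and ranked between the second and the sixth of all genes in a library by TPM. Its host gene blot had a mean of 0.16 TPM and no counts in 5 of the 8 libraries. Noe levels were 13918 and 13228 CPM at CT0, 6607 and 12435 CPM at CT6, 11103 and 11514 CPM at CT12, and 9699 and 9434 CPM at CT18. The 2 CT0 libraries were the highest of the 8, and CT6 replicate 1, the library with little Pdf, was the lowest. The CT12 libraries lay below both CT0 libraries, with a log2 change of −0.26 ± 0.28 (SE). The CT18 libraries lay between the 2 CT6 libraries.

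Hsromega (FBgn0001234, 3R 21296127 to 21317836, plus strand) encodes the heat-inducible RNA of the omega speckles. It averaged 5010 ± 797 TPM and ranked from 12 to 18 among all genes of a library. Its values were 6457 and 8049 CPM at CT0, 7050 and 6527 CPM at CT6, 6514 and 6867 CPM at CT12, and 6492 and 8133 CPM at CT18. This was the narrowest span of the 49 genes, with the highest library 1.26-fold above the lowest, and the values of each time overlapped those of every other time. The annotated forms of Hsromega are 1176, 1670, 1888 and 2776 bases long on the short side, and 13374, 14086 and 21216 bases on the long side. Nuclear speckles are built on long forms, while a short spliced form is cytoplasmic. The tables give the gene a length between 1778 bases (CT6 replicate 1) and 1951 bases (CT0 replicate 1). If that length is a mean weighted by the abundance of each form, which the files do not state, then forms of 13374 bases or more made up at most 4.94% to 6.35% of its molecules. No library stood apart in this bound.

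Genes for the proteins that Hsromega collects, and heat shock genes, mostly had lower CT18 than CT6 values, without passing the test. Of 10 genes for omega speckle proteins and partners of Hsromega, 1 had a higher CT18 than CT6 mean, snf, with a log2 change of 0.56. The median of the 10 was −0.40, and 0 were called. Without CT6 replicate 1, 3 of the 10 were higher and the median was −0.22. Iswi, a chromatin remodelling ATPase, had the smallest p for the harmonic among them, followed by Pep, a zinc finger protein on active genes. Iswi had 46.7 and 39.4 CPM at CT18, against 97.3 and 66.0 CPM at CT6. Of 15 cytosolic heat shock genes, 0 were higher at CT18 than at CT6, their median was −0.86, and 0 were called. Without CT6 replicate 1, 1 of the 15 was higher and the median was −0.43. Hsp70Bc and Hsp70Ba had the smallest p of these. The 6 Hsp70 genes, which are near-identical copies, summed to 5231 and 7280 CPM at CT18, against 26101 and 10692 CPM at CT6. The log2 difference of that sum, −1.44 between the means of log2 values, was −0.79 without CT6 replicate 1. Hsromega itself had 6492 and 8133 CPM at CT18, against 7050 and 6527 CPM at CT6, so the groups overlapped for Hsromega and did not for the Hsp70 sum.

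The αγ-element RNA CR32865 (FBgn0052865, 3R 12475336 to 12478267, minus strand) is a transcribed repeat of the 87C heat shock locus and is known to be induced by heat. It lies 7560 bases from Hsp70Ba, on the same strand. It averaged 102 ± 43.5 TPM. Values were 66.2 and 75.5 CPM at CT0, 123 and 54.3 CPM at CT6, 53.3 and 82.0 CPM at CT12, and 72.9 and 70.3 CPM at CT18. CT6 replicate 1 was its highest library, as it was for the Hsp70 sum, and the other CT6 library was the second lowest. The log2 change of CT18 minus CT6 was −0.31 ± 0.38, and it turned to 0.40 without CT6 replicate 1. The part of heat shock levels or cell content of that library in this value was not tested.

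The third abundant gene was CR31451 (FBgn0051451, 3R 23983503 to 23985065, plus strand), called lncRNA:mimi in the annotation, with 3601 ± 822 TPM. It lies 148 bases from CG13603, which averaged 207 TPM. Its values were 3189 and 2383 CPM at CT0, 1947 and 2132 CPM at CT6, 3816 and 2778 CPM at CT12, and 2845 and 2644 CPM at CT18. The 2 CT6 libraries were the lowest of the 8 and overlapped no other time. With a harmonic amplitude of 0.25 ± 0.13 and a peak at 16.0 h it was among the 5 genes with the smallest p, but edgeR's quasi-likelihood test gave an adjusted p (Benjamini-Hochberg) of 0.88.

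Next by level was CR34335 (FBgn0267910, X 3545750 to 3546110, minus strand), in an intron of DIP-alpha, a cell surface receptor of the immunoglobulin family that averaged 1.89 TPM. CR34335 averaged 709 ± 438 TPM, a level that rests on an effective length of just 83.7 bases, the shortest of the 49. Values were 133 and 20.2 CPM at CT0, 35.3 and 61.4 CPM at CT6, 90.8 and 29.5 CPM at CT12, and 51.7 and 33.1 CPM at CT18. Both the highest and the lowest library were CT0 libraries, 6.60-fold apart. Its SD between duplicates, taken as the median over the 4 times, was the largest of the set (0.86 on the log2 scale).

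Several of the genes with 100 TPM or more share sequence or a locus with a protein-coding gene. CRG (FBgn0266181), whose name stands for CASK regulatory gene and which is known in flies for an effect on locomotion, averaged 120 ± 30.3 TPM, and CASK, a scaffold kinase of synapses, averaged 116 TPM. All exonic bases of CRG lie in exons of CASK on the same strand. CRG had 269 and 173 CPM at CT18, against 167 and 146 CPM at CT6, while CASK had 302 and 269 CPM at CT18, against 456 and 322 CPM at CT6. In CRG both CT18 libraries were above both CT6 libraries, in CASK both were below. The log2 changes were 0.50 ± 0.33 for CRG and −0.45 ± 0.25 for CASK, and neither was called. The change was 0.15 for CRG without CT18 replicate 1 and −0.17 for CASK without CT6 replicate 1.

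CR45109 (FBgn0266578, 3R 13132429 to 13155687) averaged 348 ± 104 TPM, and 2mit, the gene with which all its exonic bases are shared, averaged 7.04 TPM. CR45109 had 351 and 306 CPM at CT12, against 265 and 225 CPM at CT0, a log2 change of 0.43 ± 0.32 without overlap of the libraries. CR42491 (FBgn0259993, X 762615 to 763810) averaged 250 ± 67.6 TPM. It shares 50.5% of its exonic bases with RpL22, a ribosomal protein gene that averaged 1244 TPM. The other genes between 100 and 1000 TPM were CR42862 (152 TPM, highest at 298 TPM in CT6 replicate 1), CR45333 (150 TPM, on an effective length of 105 bases) and sphinx.

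Sphinx (FBgn0083990, chromosome 4 975168 to 977261, plus strand) is a young chimeric gene that arose from a retroposed copy of the gene for ATP synthase subunit F and is known for an effect on male courtship. It averaged 106 ± 20.3 TPM, and its parent gene ATPsynF averaged 2145 TPM. Values of sphinx were 25.9 and 23.8 CPM at CT0, 18.7 and 30.1 CPM at CT6, 23.3 and 31.1 CPM at CT12, and 33.9 and 32.2 CPM at CT18. The CT18 libraries were the highest of the 8. The log2 change of CT18 minus CT6 was 0.44 ± 0.33 and 0.13 without CT6 replicate 1, and it was not called. Reads may have been shared between sphinx and ATPsynF, and 39.5% of its exonic bases lie opposite exons of fuss, a transcriptional regulator of the Ski family, which averaged 7.35 TPM.

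Among the 20 most abundant genes the remaining 9 lay between 50 and 100 TPM. They were CR43685, CR45758, CR46064, CR42861, CR45312, CR42549, CR30055, CR44922 and CR43148, with means from 52.4 TPM (CR43148) to 85.6 TPM (CR43685). CR42549 was among the 5 steadiest genes of the set between duplicates (median SD 0.09), and its 8 values ran from 59.9 to 84.5 CPM. CR44922 was one of the 5 most variable (median SD 0.69), from 33.0 to 101 CPM. CR45312 ran from 18.4 to 64.8 CPM with a median SD of 0.62.

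The other 29 members had means from 1.20 TPM (CR44506) to 50.5 TPM (CR44417). Among them CR46483 (3L 24957239 to 24975495) had the longest effective length of the set, 12095 bases, and averaged 1.99 TPM. CR44628, a gene of 1 exon between other genes, had 10.4 CPM in both CT18 libraries, against 3.58 and 7.47 CPM at CT6. This was the largest upward log2 change of the 49 for these times, 0.91 ± 0.64, and it was not called. It was 0.47 without CT6 replicate 1. CR45184, which shares exons with Sf3b3, a splicing factor gene, had 19.2 and 14.5 CPM at CT12, against 15.3 and 9.12 CPM at CT0. That was the largest upward change for CT12 minus CT0, 0.47 ± 0.47, with the libraries overlapping, and 0.14 without CT0 replicate 2. CR45939 averaged 44.1 TPM, and ftz-f1, the nuclear receptor gene that shares most of its exonic bases, averaged 11.7 TPM.

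Of the genes that carry a microRNA, 3 were among the least abundant of the set. CR43459, CR46006 and CR45919 averaged 2.17, 1.99 and 1.26 TPM on effective lengths of 5947, 6461 and 4089 bases, so that they are long genes at a low level per length. CR43459 (FBgn0263413, 3R 10093761 to 10101356) carries mir-277, which is known to act in metabolism, in 2 of its 3 transcripts and mir-34, known for a role in brain ageing, in 1. CR46006 (FBgn0267668, 3L 10323501 to 10367450) carries mir-276a in all 5 of its transcripts. CR45919 (FBgn0267579, 2L 17560813 to 17566551) carries mir-124, a nervous system microRNA that affects the phase of locomotor rhythms in flies, in both of its transcripts. CR45347 carries mir-4973 and averaged 14.4 TPM, and Hsromega has mir-4951 within 1 of its 7 transcripts. The start of CR31451 overlaps part of mir-9381. In a poly(A) library, precursors already cut by Drosha may be missed.

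The microRNA precursors did not share one pattern over the 4 times. CR46006 had 12.3 and 11.7 CPM at CT0, 7.93 and 10.9 CPM at CT6, 16.2 and 15.6 CPM at CT12, and 10.98 and 10.5 CPM at CT18, so that both CT12 libraries were above all others. CR45919 had 7.09 and 6.25 CPM at CT0, 3.26 and 3.52 CPM at CT6, 3.56 and 5.88 CPM at CT12, and 4.69 and 4.31 CPM at CT18. Its CT0 libraries were the highest and its CT6 libraries the lowest. CR43459 had 9.53 and 25.0 CPM at CT0, 15.2 and 7.38 CPM at CT6, 9.37 and 12.8 CPM at CT12, and 9.66 and 5.29 CPM at CT18, with every time overlapping another. The CT12 minus CT0 changes were 0.40 ± 0.39 for CR46006, −0.50 ± 0.63 for CR45919 and −0.64 ± 0.59 for CR43459 on the log2 scale, none of them past the test. That of CR43459 turned to 0.22 without CT0 replicate 2, and that of CR45919 was −0.18 without CT12 replicate 1.

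**Figure D2:**
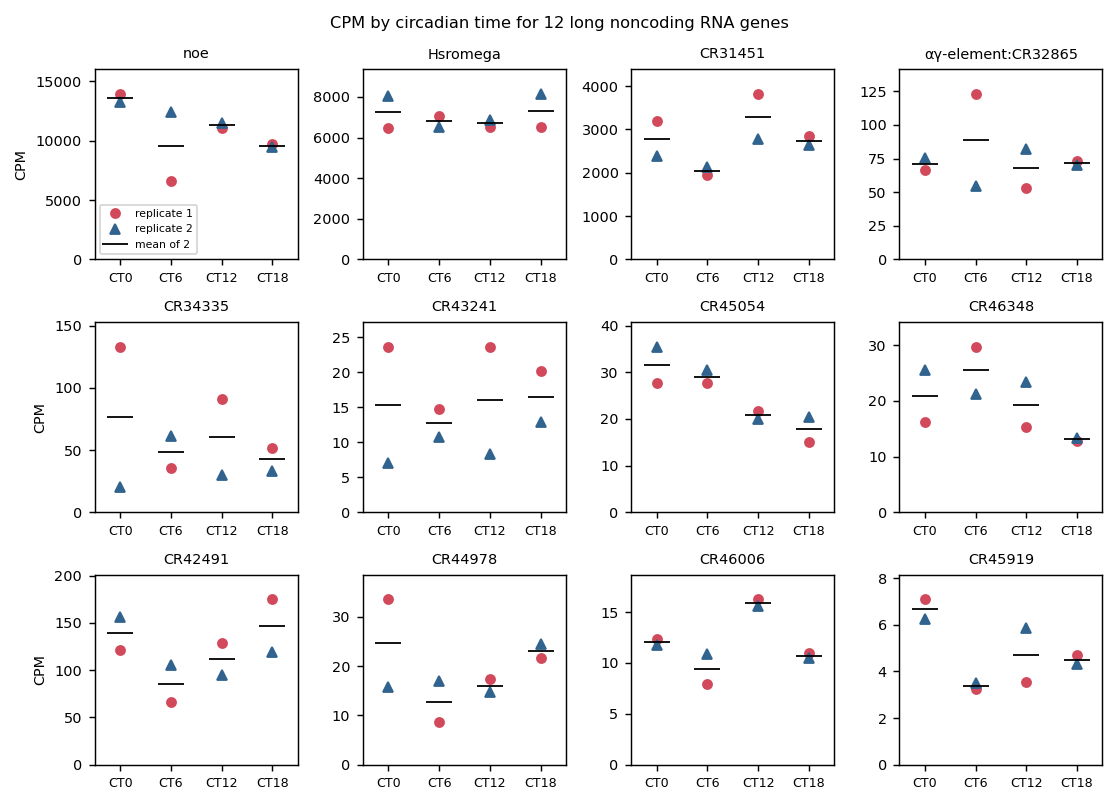
CPM (linear axis from 0) at each circadian time for 12 of the genes, with 1 point per library, shape for replicate and a bar for the mean of 2. CR34335 and CR43241 have duplicates far apart, Hsromega shows the narrowest span, and CR45054 has both CT12 and both CT18 libraries below all CT0 and CT6 libraries.

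To ask whether the level of these RNAs followed circadian time, differences were tested with edgeR's quasi-likelihood test on all 8 libraries and all 9999 genes that passed the filter on low counts, among them all 49. None of the 49 was called for a harmonic with a 24-hour period at a Benjamini-Hochberg adjusted p of 0.05, and 0.0% of all genes were. The counts were likewise 0 of 49 for any change over the 4 times (0.0% of all genes), for CT12 minus CT0 (0.0%) and for CT18 minus CT6 (0.0%). The smallest adjusted p among the 49 was 0.87 for the harmonic and 0.51 for CT18 minus CT6. At an unadjusted p under 0.05 there was 1 gene for the harmonic (2.04%, against 5.17% of all genes), 0 for any change (3.3% of all genes), 0 for CT12 minus CT0 (2.11%) and 3 for CT18 minus CT6 (6.12%, against 9.65%). DESeq2, which called 0.343%, 0.297%, 0.136% and 0.499% of all genes it tested in these 4 tests, called 0 of the 49 in each, as did limma-voom. With no filter on low counts, edgeR called 1.85%, 1.84%, 0.748% and 1.42% of all genes, and 0 of the 49 in each test. A miss does not show that levels were equal: the standard errors of the log2 changes ran from 0.22 to 0.76, with a median of 0.39.

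The gene with the smallest p for the harmonic was CR45054 (FBgn0266414, 3R 10083381 to 10090525, plus strand), which lies between genes, next to the precursor of mir-277 and mir-34. It averaged 16.2 ± 4.44 TPM. Values were 27.7 and 35.5 CPM at CT0, 27.7 and 30.4 CPM at CT6, 21.8 and 20.0 CPM at CT12, and 15.2 and 20.5 CPM at CT18. Both CT12 and both CT18 libraries were thus below all CT0 and CT6 libraries. The log2 changes were −0.60 ± 0.31 for CT12 minus CT0 and −0.71 ± 0.31 for CT18 minus CT6. The harmonic amplitude, from mean to peak in log2 units, was 0.46 ± 0.15 with a peak at 3.3 h (edgeR unadjusted p = 0.043, adjusted p = 0.87).

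CR46348 (FBgn0286028, 3L 22570364 to 22572033, minus strand) had the largest log2 change downward of the 49 between CT18 and CT6. It had 12.8 and 13.4 CPM at CT18, against 29.8 and 21.3 CPM at CT6, and 15.3 and 23.4 CPM at CT12, against 16.1 and 25.5 CPM at CT0. The CT18 libraries were the lowest of the 8, and CT12 and CT0 overlapped. The log2 change of CT18 minus CT6 was −0.97 ± 0.38 (edgeR adjusted p = 0.51), and it was −0.70 without CT6 replicate 1. Its neighbour CG14459, 1081 bases away on the same strand, was also highest in CT6 replicate 1, at 23.3 CPM.

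CR42491, the gene that shares exonic bases with RpL22, had the reverse order of these times. It had 175 and 120 CPM at CT18, against 66.2 and 105 CPM at CT6, and 128 and 94.9 CPM at CT12, against 121 and 157 CPM at CT0. CT18 and CT6 did not overlap. The log2 change of CT18 minus CT6 was 0.78 ± 0.32 (edgeR adjusted p = 0.51), it was 0.48 without CT6 replicate 1 and 0.48 without CT18 replicate 1, and it was 0.35 with the trend on gene length removed. RpL22 had 744 and 827 CPM at CT18, against 647 and 1074 CPM at CT6, with the groups overlapping.

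CR44978 (FBgn0266313, 2L 19600697 to 19605490), opposite to an intron of the receptor phosphatase Lar, had the largest amplitude of the set, 0.53 ± 0.23 with a peak at 20.4 h. Values were 33.6 and 15.7 CPM at CT0, 8.61 and 16.9 CPM at CT6, 17.4 and 14.7 CPM at CT12, and 21.8 and 24.4 CPM at CT18. The highest library was CT0 replicate 1 and the lowest CT6 replicate 1. The log2 change of CT12 minus CT0 was −0.62 ± 0.46, but 0.03 without CT0 replicate 1. That of CT18 minus CT6 was 0.85 ± 0.46, and it was 0.45 without CT6 replicate 1. CR44978 was the single one of the 49 with an amplitude of 0.5 or more.

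Among the genes with the smallest p for CT12 minus CT0 were also CR45333 and CR45347. CR45333 had 15.2 and 14.3 CPM at CT12, against 26.8 and 16.5 CPM at CT0, a log2 change of −0.56 ± 0.38 that was −0.16 without CT0 replicate 1. CR45347, the precursor of mir-4973, had 3.39 and 7.69 CPM at CT12, against 9.92 and 9.92 CPM at CT0, a log2 change of −0.85 ± 0.58 that was the largest downward for this pair of times. It was −0.37 without CT12 replicate 1 and −1.55 without CT12 replicate 2. In both genes the CT12 libraries lay below the CT0 libraries. CR43685 was the fifth gene by p for CT18 minus CT6, with 114 and 79.7 CPM at CT18, against 56.6 and 71.4 CPM at CT6, a log2 change of 0.60 ± 0.33 without overlap of the libraries.

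Some core clock genes, measured in the same libraries, had larger changes between CT12 and CT0 than any of these RNAs, although 0 of 8 were called. The 2 with the smallest p for the harmonic were vri and Clk, a repressor and an activator of the clock. Vri had 154 and 369 CPM at CT12, against 39.0 and 45.2 CPM at CT0. Clk had 23.3 and 45.2 CPM at CT12, against 86.7 and 297 CPM at CT0. Neither gene's libraries overlapped between these times, and their log2 changes of 2.64 ± 0.53 and −2.49 ± 0.59 lie outside the range of the 49 genes, from −0.85 to 0.47. Without CT0 replicate 2 the change of Clk was −1.34. The count minimum in every library can keep RNAs with large changes out of the 49, and the clock genes were not chosen by it.

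As a group, the 49 genes were centred near 0 between CT12 and CT0 and above 0 between CT18 and CT6. For CT12 minus CT0 their median log2 change was −0.04, with 22 of the 49 (44.9%) higher and 27 lower, against 0.00, 50.8% higher and 49.2% lower for all genes tested. For CT18 minus CT6 the median was 0.28, with 32 of the 49 (65.3%) higher and 17 lower, against −0.02, 48.4% higher and 51.2% lower for all genes tested. The 57 genes named asRNA past the same count minimum had a median of 0.14 for these times, with 33 (57.9%) higher and 24 lower. In 16 of the 49 genes (32.7%, background 20.1%) both CT18 libraries were above both CT6 libraries, and in 4 (8.16%, background 21.6%) both were below. The 2 CT12 libraries were above both CT0 libraries in 4 genes (8.16%, background 12.0%) and below in 7 (14.3%, background 13.1%). The counts are a description of these libraries, since single genes were not called. Leaving out 1 or another of the 4 libraries compared turned the direction of 34 of the 49 genes for CT12 minus CT0 and of 26 for CT18 minus CT6.

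The shift between CT18 and CT6 was not present once each library's trend on gene length was removed. With the effective length of each gene in each library as an offset, the median of the 49 was 0.27. That offset is relative to the gene's own mean length, so it cannot remove a trend between short and long genes. Of the 49 genes, 34 were shorter than the median effective length of all genes tested, and the shorter of all tested genes had a median log2 change of 0.25. With each library's trend on effective length removed, the median of the 49 was 0.01 with 25 higher, and both CT18 libraries were above both CT6 libraries in 11 (22.4%, background 17.1%) and below in 9 (18.4%, background 19.1%). Among the 49 the 34 shorter genes had a median of 0.12 and the 15 longer ones 0.30, a difference that was not tested. The median was 0.30 without CT6 replicate 1 and 0.08 without CT18 replicate 1. Marker lists of other cells had their own differences between these times. Of 8 glial markers 7 were higher at CT18, with a median log2 change of 0.96 and sums of 269 and 254 CPM at CT18, against 152 and 156 CPM at CT6. The marker that was lower was the defining marker repo, with a log2 change of −0.64 ± 1.92. Repo had no counts in 1 library and at most 0.714 CPM. In CT18 replicate 1, nrv2, Gs2 and Eaat1 held 113, 86.0 and 48.1 CPM of the sum of 269 CPM. The glial median was 0.59 without CT18 replicate 1. Of 6 pan-neuronal markers 1 was higher at CT18, with a median of −0.31, which was −0.08 without CT6 replicate 1, and with sums of 2558 and 2598 CPM at CT18, against 3688 and 2983 CPM at CT6. All 6 tested host genes of small nucleolar RNAs were higher at CT18, with a median of 0.58, which was 0.09 without CT18 replicate 1. None of these list members was called, and their part in the shift was not tested.

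**Figure D3:**
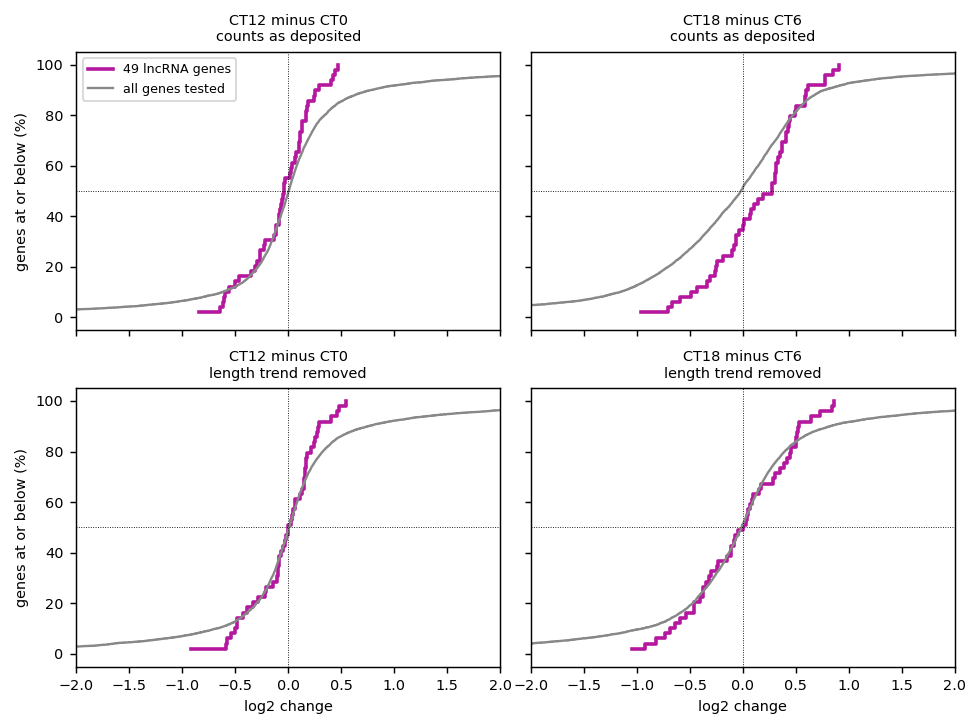
Cumulative share of genes (%) at or below each log2 change, for the 49 genes and for all genes tested, in CT12 minus CT0 and CT18 minus CT6, from counts as deposited (top) and with the trend on gene length removed (bottom). For CT18 minus CT6 the curve of the 49 genes lies to the right of all genes at the median in the top panel (0.28) and crosses near 0 in the bottom panel (0.01).

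Medians were also taken by position, and differences between the classes were not tested. The median log2 change of CT18 minus CT6 was 0.25 for the 26 genes between other genes, 0.35 for the 7 within introns, 0.28 for the 11 with a same-strand exon overlap and 0.14 for the 5 with an opposite-strand overlap. The median SD between duplicates of the 4 classes lay between 0.26 and 0.35 on the log2 scale. Genes between other genes thus had the smallest and genes with a same-strand overlap the largest median spread.

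Spread between duplicates differed widely among the members. The median SD between duplicates had a middle value of 0.30 on the log2 scale over the 49, against 0.25 over the other genes past the same minimum and 0.32 over all genes tested, a difference that was not tested. It was 0.28 over the 57 genes named asRNA past that minimum. Of the 49 genes, 32 lay above that value of 0.25. In 17 genes the highest library was less than 2-fold above the lowest, and in 2, CR34335 and CR43459, it was at least 4-fold above. Besides CR34335, the most variable were CR43241 (0.76), CR44922, CR43459 (0.67) and CR44628 (0.63), while noe, CR46006, CR42549, CR45919 and CR32218 were the steadiest, with median SDs from 0.04 in noe to 0.14 in CR32218. A median over 4 times passes over a single time with a wide gap, and noe had such a gap at CT6. CR43241, which shares 42.4% of its exonic bases with CG42748, had 23.6 and 7.01 CPM at CT0, 14.8 and 10.7 CPM at CT6, 23.6 and 8.33 CPM at CT12, and 20.1 and 12.8 CPM at CT18.

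In CR43241 every replicate 1 library was above every replicate 2 library, and the same held in CR44458, CR45312 and CR46268. These 4 genes are 8.16% of the set, against 2.89% of all genes tested, and the reverse order was found in 0 of the 49, against 2.5% of all genes. The median log2 difference of replicate 1 minus replicate 2 was 0.13 for the 49, against −0.00 for all genes. None of the 49 was called for the replicate number (0.0% of all genes were), and 6 had an unadjusted p under 0.05 (12.2%, against 6.17%). The labels do not say what libraries with the same replicate number share. Host genes of small nucleolar RNAs, which are spliced RNAs of no coding role, moved with the number too. Their sum was 188, 125, 182 and 197 CPM in the replicate 1 libraries of CT0, CT6, CT12 and CT18, and 68.7, 91.2, 107 and 115.3 CPM in the replicate 2 libraries. All replicate 1 sums were above all replicate 2 sums.

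**Figure D4:**
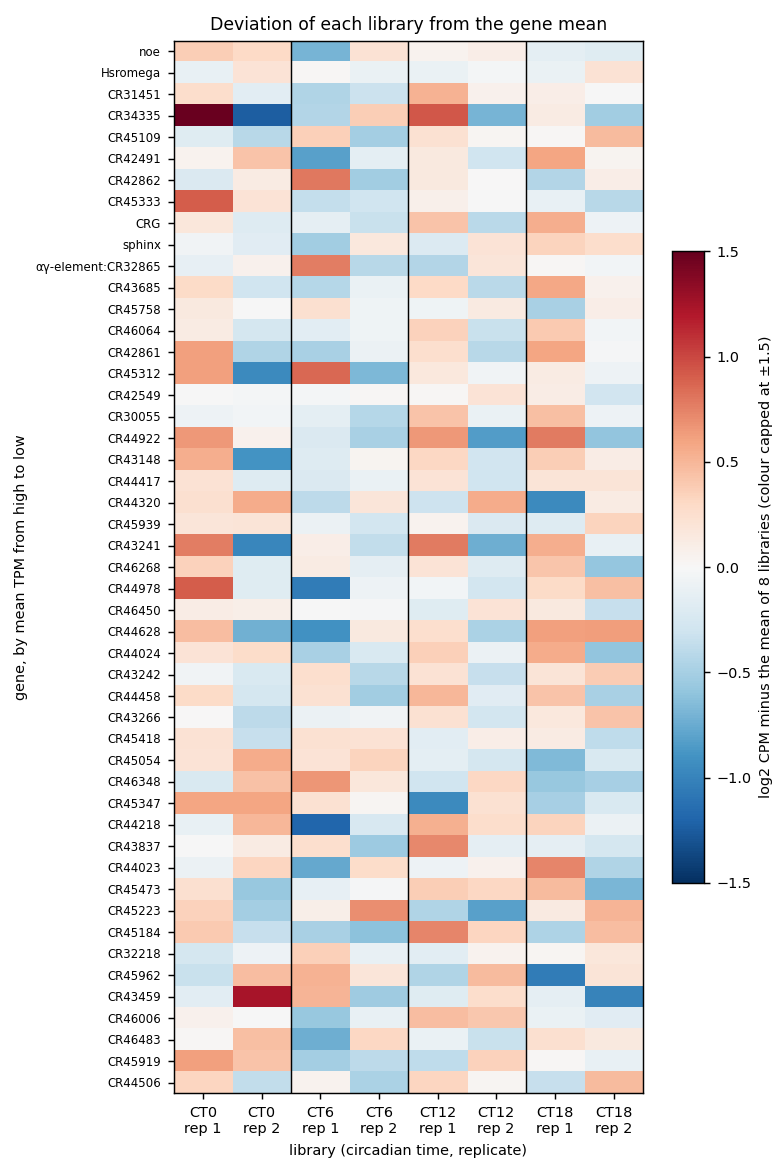
Difference of log2 CPM in each library from the gene's mean over 8 libraries, for the 49 genes by mean TPM, with libraries in order of circadian time. Red is above and blue below the gene's mean. The median difference of the 49 genes is lowest in the 2 CT6 libraries, at −0.13 and −0.10, against 0.02 and 0.03 over 5766 genes. With the trend on gene length removed (not shown), the medians were 0.13 in CT6 replicate 1 and −0.16 in CT6 replicate 2. The lowest was then −0.19, in CT18 replicate 2. CR34335 has the strongest contrast within a time (CT0), and replicate 1 of CT0, CT12 and CT18 is redder than replicate 2.

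Genes of RNA decay were followed in the same libraries. Of 12 tested genes for the nuclear RNA exosome and its cofactors, which trim and degrade noncoding RNA, 0 were called in any of the 4 tests. Of these, 7 had a higher CT18 than CT6 mean, and the median log2 change was 0.11. Without CT6 replicate 1 these were 5 and −0.08. Zcchc7 and Dis3 had the smallest p for the harmonic. Zcchc7 had 30.6 CPM in both CT18 libraries, against 53.9 and 55.3 CPM at CT6. Dis3, a ribonuclease of the exosome, had 5.8 and 7.5 CPM at CT18, against 34.0 and 8.1 CPM at CT6, so its log2 change of −1.67 was −0.29 without CT6 replicate 1. The summed level of these 12 genes stayed between 228 and 280 CPM in the 8 libraries.

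The count minimum set the edge of the set. Just inside it were CR45418, with a lowest count of 50, CR32218 (60), CR44506 (67), CR45223 (70.1) and CR44218 (72). Just outside were CR45982, with a lowest count of 47, CR43496 (46), CR40469 (45.7), CR45180 (45) and CR43492 (45). CR40469 averaged 66.9 TPM, more than most members, since level per length and counts rank short genes differently. Some well-known long noncoding RNAs did not reach the minimum in every library. The RNA cherub, known from neural stem cells, had 26 to 186 counts in a library, flam, a source of piRNAs in the ovary, 14.9 to 82, and let7C, the precursor of let-7, 7.03 to 37.3. The bithorax RNAs iab8 and bxd and the sleep-linked RNA yar were listed with no counts in all 8 libraries.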

How the data were processed

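Polyadenylated RNA of sorted clock neurons was sequenced in 8 libraries, 2 for each of 4 circadian times. The deposited gene tables are in the layout of Salmon and, per the file headers, list each gene with 2 lengths, an estimated (expected) count and a TPM value. The submitters' processing notes name DRAGEN, Salmon and dm6. Roles, versions, annotation and strand setting were not found in the sources used here. Per the values, the deposited expected counts were not normalized and the deposited TPM have 1 common total.

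Counts were rounded. The filter on low counts, filterByExpr by time with min.count 10, passed 9999 of 13499 genes with a count. The test was the quasi-likelihood F-test of edgeR 4.0.16 in R 4.3.3 with TMM factors, 4 times as groups, 4 residual degrees of freedom, and Benjamini-Hochberg adjustment over all tested genes at 0.05. Tests were two-sided. The step was tested on simulated data. CPM values are normalized by TMM. SD between duplicates is the median over the 4 times, on log2 CPM with a prior count of 1. The labels do not say whether replicates came from separate flies, and p-values thus measure the spread between these libraries alone. Same-numbered replicates deviated together at CT0 and CT12 (r = 0.56 over 5766 genes), the times of a contrast tested here. At other pairs of times r ran from −0.21 to 0.22. The numbers were therefore not taken to pair libraries, and a replicate block was run as an alternative.

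All 49 genes were matched to the Ensembl release 115 annotation, which uses dm6 coordinates and need not be the authors' annotation. CR31451 was matched through a RefSeq synonym. Named genes are the 20 highest by mean TPM, those with a name other than CR and digits, those passing a test or the 5 with the smallest p, the 5 most and least variable between duplicates, the 5 on each side of the count minimum, and the gene sharing the locus. Other genes, among them the microRNA precursors, the genes at the ends of a range, the genes that separate replicate numbers and the known RNAs below the minimum, were chosen after their values were seen. The members and the gene lists were chosen with earlier results of these data known.

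Alternatives were RLE factors, no filter, at least 5 CPM in 2 libraries, limma-voom (limma 3.58.1), DESeq2 1.42.0, limma on log2 TPM with pseudocounts of 1 and 0.1, a replicate block, effective length as an offset, the lowess trend (span 0.3) of each library on effective length taken out, the libraries of a contrast alone, each library left out, and count minimums of 20 or 100 or no shared exonic base for membership. The comparison of replicate numbers was added after seeing the data. Scripts ran in Python 3.11.15 with pandas 2.3.3, numpy 2.4.6 and matplotlib 3.10.9. Chromatin data and control libraries were not analysed here.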

Additional observations from a re-analysis of the deposited data

How the results depend on the processing

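The count of members called was 0 in each of the 4 tests under every alternative run, with 84 genes at a minimum of 20 counts, 38 at 100, and 33 without shared exonic bases. It was 0 to 0 over the fits that leave out 1 library. With a replicate block 0 were called in each test, and the medians were −0.05 for CT12 minus CT0 and 0.27 for CT18 minus CT6. Same-numbered libraries share only a number as far as the labels go.

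The median log2 change of CT12 minus CT0 was −0.04. It was 0.0926 on log2(TPM + 1) and 0.0942 on log2(TPM + 0.1), and leaving out 1 library gave −0.19 (without CT12 replicate 1) to 0.15 (without CT0 replicate 1), with 0.0946 without CT12 replicate 2. The median of CT18 minus CT6 was 0.28. It was 0.0803 on log2(TPM + 1) and 0.00512 with the length trend removed, which by construction takes out what short genes have in common, and leaving out 1 library gave 0.0759 (without CT18 replicate 1) to 0.31. For the other moves the cause was not tested. Leaving out a library turned the direction of 34 of the 49 genes for CT12 minus CT0 and 26 for CT18 minus CT6. Of the genes with the smallest p for either change, CR44978 turned direction for CT12 minus CT0: leaving out 1 library gave −1.06 (without CT0 replicate 2) to 0.0291 (without CT0 replicate 1), and the cause was not tested.

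With 2 libraries a time, the standard errors had a median of 0.39 on the log2 scale, beside changes from −0.97 to 0.91. A lone library in a left-out fit is assumed to vary like the others.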
